A study of Mus musculus with 7 samples.

Results

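Chemokine and chemokine receptor genes were described in kidney RNA of lupus-prone MRL/lpr mice that had received AZD1152 or vehicle. The members were the rows of the deposited count table whose GRCm38 symbol begins with Ccl, Cxcl, Ccr, Cxcr or Ackr followed by a digit, together with Cx3cl1, Cx3cr1, Xcl1 and Xcr1. Cxcl9, Cxcl10, Cxcl11 and Cxcr3 were left out. The rule found 66 of the 53465 rows of the table, which carry 61 symbols because several genes have copies on unplaced scaffolds. Both groups consisted of MRL/lpr mice, whose lpr mutation disrupts the death receptor gene Fas, so the comparison holds no healthy kidney. AZD1152 (barasertib) is a prodrug of an inhibitor of Aurora kinase B, and it was given to 4 mice, while 3 mice received vehicle. Each mouse gave 1 poly(A)-selected library of renal tissue. The dose, the schedule, the make-up of the vehicle and the age and sex of the mice are not given in the sources used here.

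Chemokines are small proteins that direct the migration of leukocytes. They are named by the spacing of their first cysteines (CC, CXC, CX3C and C), and they act through G protein-coupled receptors that signal mainly through inhibitory G proteins. Atypical receptors (Ackr genes) bind chemokines without this signal and remove or transport them. In nephritis, tubular, mesangial, endothelial and infiltrating immune cells make inflammatory chemokines, and the receptors are carried mostly by the cells that enter.

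The libraries held 14692113 to 17036862 counts. A gene with 0 counts in a library could have been present in it at up to 0.176 to 0.204 CPM (counts scaled to a library of fixed size). These are the levels of 3 counts in the deepest and the shallowest library, and they cover counting error only. Library sizes were corrected with the TMM factors of edgeR. Markers of proximal tubule, the main cell type of kidney cortex, summed to 9402 to 11203 CPM with vehicle and 13101 to 15320 CPM with AZD1152, so kidney was present in every library. Aurkb, the gene of the drug's target, stood at 2.73 ± 0.648 CPM in the 3 vehicle kidneys and at 1.00 ± 0.267 CPM in the 4 treated kidneys (mean ± SD, as for all such values below).

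Of the 66 members, 39 had enough counts for a test, and 10 of these fell and 0 rose in AZD1152 kidneys. The 10 were the ligands Ccl2, Ccl5, Ccl7, Ccl8, Cxcl1, Cxcl14 and Cxcl16 and the receptors Ccr1, Cxcr4 and Cxcr6. A call means a Benjamini-Hochberg adjusted p under 0.05 over all 15774 genes tested with edgeR's quasi-likelihood test. Called members made up 25.6% of those tested, where 4.81% of all genes tested were lower and 3.02% were higher. Of the 39 tested members, 7 were called and fell by at least 1 log2 unit, as did 2.47% of all genes tested. Without scaling beyond library totals the median of all genes moved to -0.15 on the log2 scale. The share of higher genes among all calls then went from 38.5% to 13.6%. With this scaling 13 members were lower and 0 higher, where 1480 of the 15774 genes were lower and 233 higher. At an unadjusted p under 0.05, 24 members were lower and 0 higher, where 13.1% of all genes tested were lower and 11.7% higher. DESeq2 called 16 members lower and 0 higher, and of all genes it called 7.5% lower and 6.02% higher. The estimate was negative for 34 of the 39 tested members (87.2%), against 50.1% of all genes. The median log2 fold change was -0.94 over the members and -0.00061 over all genes. The vehicle libraries lay above all AZD1152 libraries for 16 members (41.0%, against 11.6% of all genes), and the reverse held for 0 members (11.2% of all genes). These counts cover the members that passed the filter on low counts. Of those, 6 reached the filter's minimum in vehicle libraries only, Ccl7, Ccl12, Ccr7, Cxcl1, Cxcl17 and Cxcr5, so the filter favours a lower value for them. Cxcr2, Ccl19-ps1 and Ccl19-ps3 reached it through the AZD1152 libraries only, so for them the filter favours a higher value. Without vehicle replicate 3 the calls came to 3, while the lower genes in all went from 759 to 163. Without vehicle replicate 1 or AZD1152 replicate 4 the calls came to 4 each, with 272 and 336 lower genes in all. Mitochondrial genes took 8.03% to 9.002% of the counts with vehicle and 9.41% to 11.6% with AZD1152, without overlap. The highest share was that of AZD1152 replicate 2, which was the lowest treated library in 7 of the 10 genes that fell. Without this library 8 members were lower, with 521 lower genes in all. The part of the mitochondrial share in the results was not tested.

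**Figure D1:**
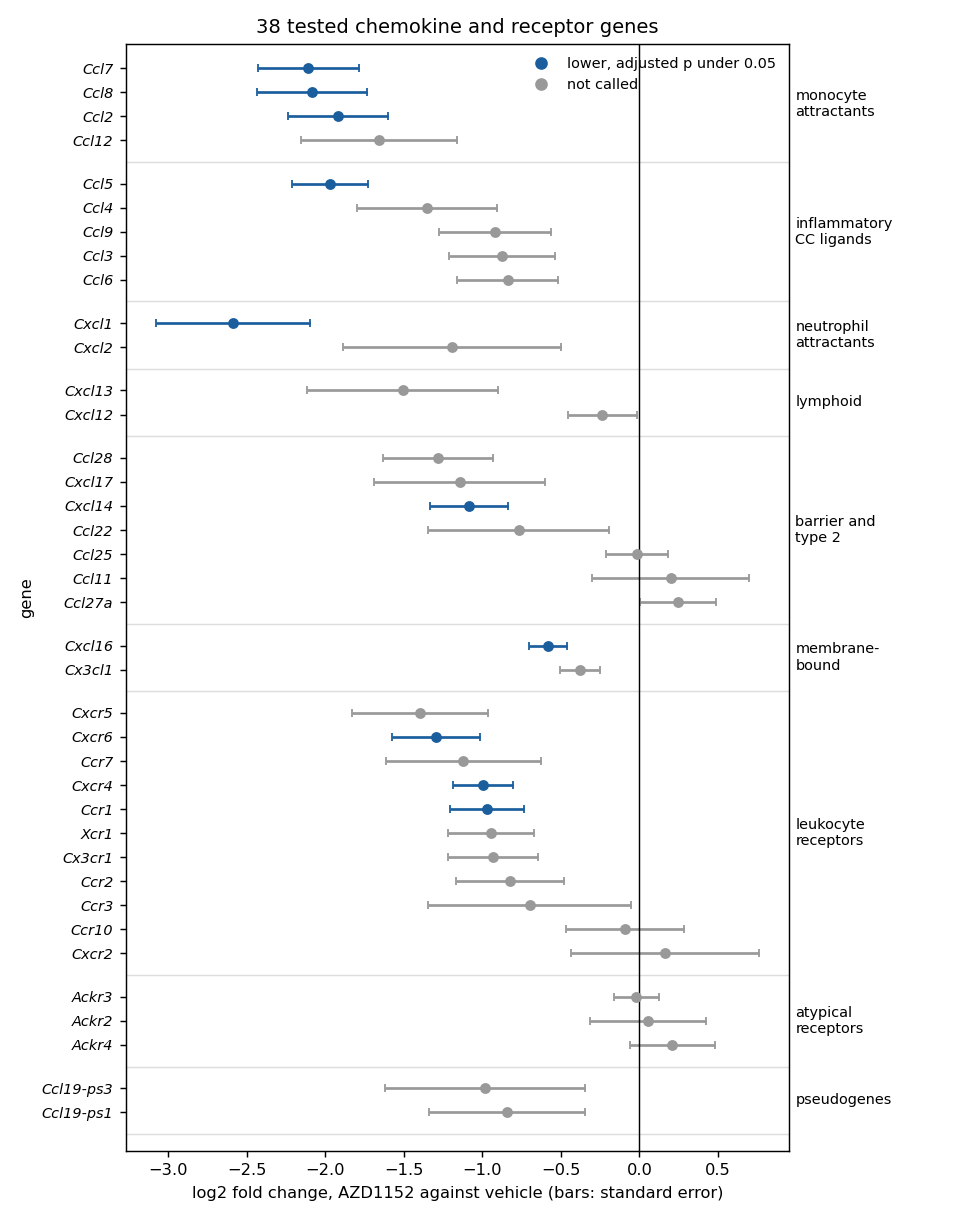
Log2 fold change of AZD1152 against vehicle (horizontal axis) for 38 of the 39 tested members, in blocks by role, with standard errors as bars. Blue points are the 10 genes lower at an adjusted p under 0.05. The monocyte attractants lie between -2.11 and -1.66, and the 3 atypical receptors lie near 0, between -0.02 and 0.21.

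The attractants of monocytes had a median log2 fold change of -2.001, and 3 of the 4 fell. Ccl7 and Ccl12 reached the filter's minimum in vehicle libraries only, so for them the filter favours a lower value. Ccl2, Ccl7 and Ccl12 act on Ccr2, the receptor that brings monocytes out of bone marrow and into tissue, and mouse Ccl8 acts mainly on Ccr8. All 4 genes lie on GRCm38 chromosome 11. Ccl2 (82035571 to 82037453, plus strand) was measured at 7.80, 5.99 and 11.9 CPM in vehicle replicates 1 to 3. In AZD1152 replicates 1 to 4 it stood at 2.05, 1.39, 3.32 and 2.26 CPM. The highest treated kidney thus lay below the lowest vehicle kidney. Ccl2 fell by 1.92 ± 0.32 in log2 units (SE), at an edgeR adjusted p of 0.0140.

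Ccl7 (82045712 to 82047525, plus strand) was a low transcript with 2.62, 2.00 and 2.38 CPM with vehicle. AZD1152 kidneys held 0.725, 0.265, 0.510 and 0.637 CPM, from 4 to 12 counts each. The groups did not overlap, and Ccl7 fell by 2.11 ± 0.32 log2 units (edgeR adjusted p = 0.0122). Ccl8 (82115185 to 82116799, plus strand) was far more abundant, at 27.2, 43.9 and 27.1 CPM with vehicle. The treated kidneys had 9.30, 3.52, 6.12 and 12.0 CPM, all below the vehicle range. Its fall was 2.09 ± 0.35 log2 units (edgeR adjusted p = 0.0149). Ccl12 (82101845 to 82103400, plus strand) lies between Ccl7 and Ccl8 and averaged 1.496 ± 0.512 CPM with vehicle and 0.462 ± 0.314 CPM with AZD1152. Its groups did not overlap either, yet it missed the threshold at -1.66 ± 0.50 (edgeR adjusted p = 0.0758), while DESeq2 called it. The call of Ccl2 was lost without vehicle replicate 3 (edgeR adjusted p = 0.0562), and those of Ccl7 and Ccl8 held without any 1 of the 7 libraries.

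**Figure D2:**
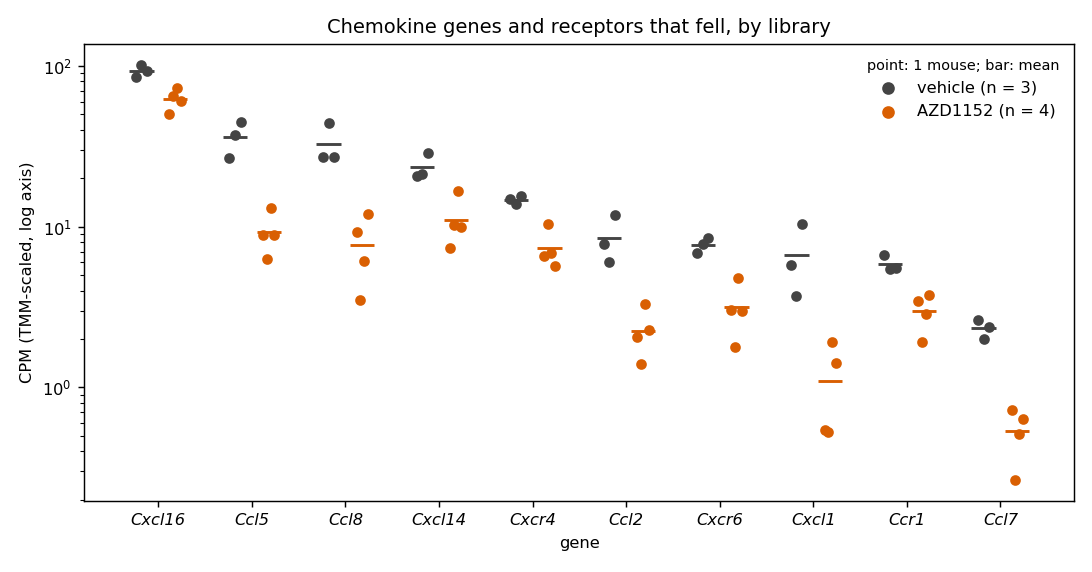
Level in CPM (log axis) of the 10 members that fell, 1 point per mouse with a bar at the group mean. In each gene the 3 vehicle kidneys lie above the 4 AZD1152 kidneys. In Ccl5 the lowest vehicle kidney had 26.9 CPM and the highest treated kidney 13.1 CPM.

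Other inflammatory CC chemokines of macrophages and activated T cells made up 5 tested members, of which Ccl5 fell. Ccl5 (RANTES; chromosome 11, 83525778 to 83530518, minus strand) attracts T cells and macrophages and is made by activated T cells and by tubular epithelium. It was measured at 26.9, 37.0 and 45.03 CPM with vehicle and at 8.82, 6.30, 13.1 and 8.85 CPM with AZD1152. The treated values lay far under the vehicle range, and Ccl5 fell by 1.97 ± 0.24 log2 units (edgeR adjusted p = 0.00951). This call held without any 1 of the 7 libraries.

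The other 4 ligands of this block did not pass the test. Ccl3 and Ccl4, macrophage inflammatory proteins of activated macrophages and T cells, had 2.45 ± 0.652 and 3.23 ± 1.51 CPM with vehicle and 1.34 ± 0.482 and 1.27 ± 0.637 CPM with AZD1152. Ccl6 and Ccl9, myeloid chemokines found in rodents, had 15.6 ± 7.09 and 11.1 ± 5.42 CPM with vehicle and 8.73 ± 2.55 and 5.89 ± 1.77 CPM with AZD1152. Their log2 fold changes were -0.84 ± 0.32 and -0.92 ± 0.36 (edgeR adjusted p = 0.145 and 0.150). Vehicle replicate 2 was low in both, at 8.84 and 5.36 CPM, within the range of the treated kidneys, and without it both were lower with AZD1152 (edgeR adjusted p = 0.0491 and 0.0363).

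The CXC chemokines that act on the neutrophil receptor Cxcr2 were scarce in these kidneys, and Cxcl1 was the only one of them that fell. Cxcl1 (chromosome 5, 90891241 to 90893115, plus strand) had 5.76, 3.71 and 10.4 CPM with vehicle and 0.544, 0.531, 1.91 and 1.42 CPM with AZD1152. The treated kidneys lay under every vehicle kidney, although the vehicle values themselves spread widely. Cxcl1 fell by 2.59 ± 0.49 log2 units (edgeR adjusted p = 0.0207) and had the lowest estimate of the 39 tested members. It reached the filter's minimum in vehicle libraries only, so the filter favours a lower value for it. It no longer passed when vehicle replicate 1, vehicle replicate 3 or AZD1152 replicate 4 was left out (edgeR adjusted p = 0.0521, 0.0814 and 0.0515). Its neighbour Cxcl2 had 0.931, 0.285 and 2.27 CPM with vehicle and 0.181, 0.332, 0.957 and 0.566 CPM with AZD1152. The groups overlapped, and the estimate of -1.19 ± 0.70 did not pass (edgeR adjusted p = 0.331). Cxcl3, Cxcl5 and Cxcl15 had totals of 3, 12 and 0 counts over the 7 libraries. Neutrophil markers summed to 26.3 to 31.5 CPM with vehicle and 11.2 to 29.0 CPM with AZD1152, with 0 of 6 tested markers called by edgeR, 1 by DESeq2 and 1 at an unadjusted p under 0.05. The granule genes Mpo and Elane had 4 and 3 counts in all, and the part of neutrophils in the Cxcl1 result was not tested.

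Promoter sequences from RefSeq (build GRCm38.p6) were available for 26 of the 39 tested members, and 250 bases before the start of each gene were searched on both strands. The motifs were the NF-kB consensus by its name, the interferon-stimulated response element (TTTC, any 2 bases, TTTC), the AP-1 site TGANTCA and the STAT site TTCNNNGAA. The NF-kB consensus was present in 6 of the 26 promoters (Ackr2, Ccl9, Ccr1, Ccr3, Cxcl1 and Cxcl2), against 8.23% of 27025 genes with a promoter in the table. The response element and the STAT site each matched 1 member, Cxcl14, against 3.46% and 8.13% of all genes. The AP-1 site matched 3 (Ccl9, Ccl27a and Ccr3), against 7.82%. Of the 10 genes that fell, 6 had a promoter in the table, and 3 of these held a match, Ccr1, Cxcl1 and Cxcl14. Their sequences follow with that of Cxcl2, 5′ to 3′ on the strand of the gene, with matched letters in capitals. In Cxcl1 and Cxcl2 the capitals are 2 overlapping NF-kB matches, in Ccr1 they are 1 NF-kB match, and in Cxcl14 they are the STAT site followed by the response element on the other strand.
Cxcl1, chr5:90890995-90891244, plus strand: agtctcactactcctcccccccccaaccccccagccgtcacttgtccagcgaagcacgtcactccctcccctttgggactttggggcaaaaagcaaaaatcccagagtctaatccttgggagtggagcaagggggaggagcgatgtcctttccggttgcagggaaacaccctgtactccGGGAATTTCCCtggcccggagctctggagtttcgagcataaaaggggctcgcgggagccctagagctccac
Cxcl2, chr5:90903649-90903898, plus strand: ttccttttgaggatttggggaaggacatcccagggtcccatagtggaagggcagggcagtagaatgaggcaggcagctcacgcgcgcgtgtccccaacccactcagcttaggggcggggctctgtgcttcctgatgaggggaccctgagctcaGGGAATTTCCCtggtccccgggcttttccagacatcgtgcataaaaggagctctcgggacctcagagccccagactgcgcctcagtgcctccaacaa
Ccr1, chr9:123968693-123968942, minus strand: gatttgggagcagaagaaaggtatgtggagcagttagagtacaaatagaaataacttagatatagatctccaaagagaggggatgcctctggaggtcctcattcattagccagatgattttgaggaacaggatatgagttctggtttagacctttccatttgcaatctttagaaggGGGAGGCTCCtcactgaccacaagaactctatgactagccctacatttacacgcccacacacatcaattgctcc
Cxcl14, chr13:56296552-56296801, minus strand: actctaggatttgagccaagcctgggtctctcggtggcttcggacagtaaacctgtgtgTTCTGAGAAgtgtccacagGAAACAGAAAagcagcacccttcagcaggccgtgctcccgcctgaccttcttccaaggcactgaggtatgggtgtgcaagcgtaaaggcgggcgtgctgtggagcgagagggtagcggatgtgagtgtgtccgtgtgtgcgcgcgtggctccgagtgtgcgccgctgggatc

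Cxcl1 and Cxcl2 hold the same 11 letters, GGGAATTTCCC, starting 71 and 97 bases before the start of the gene. Of this pair, Cxcl1 fell and Cxcl2 was not called, and the levels of Cxcl2 were those of 3 to 41 counts per library. A match describes the letters and not binding, which was not measured here.

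Among chemokines that organise lymphoid tissue, Cxcl12 and Cxcl13 were measured and edgeR called 0 of them, DESeq2 0, while 1 had an unadjusted p under 0.05. Cxcl13 (chromosome 5, 95956951 to 95961068) attracts B cells through Cxcr5. Its vehicle values spread widely, at 12.6, 60.0 and 24.1 CPM with vehicle and 19.5, 4.25, 5.55 and 16.1 CPM with AZD1152. Vehicle replicate 1 lay within the treated range, and the estimate was -1.51 ± 0.61 (edgeR adjusted p = 0.165). B cell markers had their highest sums in vehicle replicates 2 and 3 (23.8 and 24.1 CPM) and 10.9 CPM in vehicle replicate 1, which was also the lowest vehicle library for Cxcl13. Across the treated kidneys they summed to 5.995 to 17.04 CPM, and their part in the spread of Cxcl13 was not tested. Cxcr5 itself had 0.989, 2.28 and 1.61 CPM with vehicle and 1.03, 0.663, 0.383 and 0.354 CPM with AZD1152, an estimate of -1.40 ± 0.43 that did not pass (edgeR adjusted p = 0.0832). It shares 110 exonic bases with Bcl9l on the other strand.

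Cxcl12 (chromosome 6, 117168535 to 117181367), which holds progenitors and lymphocytes in place through Cxcr4 and is made by stromal and vascular cells, took the most counts of all members. Its values were 171, 308 and 215 CPM with vehicle and 165, 242, 226 and 153 CPM with AZD1152. The groups overlapped widely (log2 fold change -0.24 ± 0.22, edgeR adjusted p = 0.561). Ccl19 and Ccl21, the ligands of Ccr7, have near-identical copies in the mouse genome. The 8 rows of these genes held 0 to 36 counts each and were not tested, and the pseudogenes Ccl19-ps1 and Ccl19-ps3, which passed the filter, had log2 fold changes of -0.84 ± 0.50 and -0.98 ± 0.63. For Ccl19-ps3 every stretch of 50 bases of its transcript (100%) also occurs in another gene, so its reads could have come from those genes. For Ccl19-ps1 46.0% of stretches also occur in other genes. Ccr7, which guides dendritic cells and naive T cells, had 1.99 ± 1.04 and 0.911 ± 0.527 CPM (edgeR adjusted p = 0.199).

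Cxcl16 and Cx3cl1 are made as membrane proteins whose chemokine part is displayed on a stalk and can be shed. Cxcl16 (chromosome 11, 70453983 to 70459984, minus strand), the ligand of Cxcr6, had 84.8, 102 and 92.3 CPM with vehicle and 50.2, 65.1, 72.9 and 60.5 CPM with AZD1152. The groups did not overlap, and Cxcl16 fell by 0.58 ± 0.12 log2 units (edgeR adjusted p = 0.0264), the smallest fall of the 10. Its exons share 552 bases with Zmynd15 on the other strand, which went from 28.8 ± 4.36 to 18.2 ± 2.26 CPM, and the strand setting of the counting was not given in the sources used here. The Cxcl16 call was lost without any 1 vehicle replicate or without AZD1152 replicate 4 (edgeR adjusted p = 0.0537 to 0.0929).

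Cx3cl1 (fractalkine; chromosome 8, 94772009 to 94782427, plus strand) tethers and attracts cells with Cx3cr1. It had 91.3, 93.4 and 102 CPM with vehicle and 59.6, 78.9, 88.7 and 66.8 CPM with AZD1152. Although every treated kidney was under the vehicle range, the estimate of -0.38 ± 0.13 did not pass (edgeR adjusted p = 0.103).

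Chemokines of epithelial barriers and of type 2 responses made up 7 tested members, of which 1 fell. Cxcl14 (chromosome 13, 56288643 to 56296551, minus strand), made by epithelia and stroma, had 20.5, 21.3 and 28.6 CPM with vehicle. The treated kidneys had 7.31, 10.3, 16.7 and 9.98 CPM, all lower. Cxcl14 fell by 1.08 ± 0.25 log2 units (edgeR adjusted p = 0.0360), and the call was lost without any 1 library other than AZD1152 replicate 3 (edgeR adjusted p = 0.0505 to 0.144). Fibroblast markers moved with it: they summed to 307 to 432 CPM with vehicle and 167 to 265 CPM with AZD1152, without overlap. Of 6 tested, Col1a1 and Col1a2 fell in edgeR, 3 were lower in DESeq2 and 0 rose in either, and their part in the Cxcl14 result was not tested. Ccl28 (chromosome 13, 119623819 to 119654359, plus strand), a mucosal chemokine that acts on Ccr10, had 27.2, 37.6 and 64.7 CPM with vehicle and 24.5, 13.5, 10.3 and 22.8 CPM with AZD1152. The gap between the groups was narrow beside the spread of the vehicle values. Its estimate of -1.28 ± 0.35 missed the threshold (edgeR adjusted p = 0.0578), and DESeq2 called it (adjusted p = 0.0376).

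The remaining 5 genes of this block had adjusted p from 0.235 to 0.973. Ccl25, the ligand of the gut-homing receptor Ccr9, had 5.41 ± 0.870 CPM with vehicle and 5.35 ± 0.919 CPM with AZD1152, an estimate of -0.02 ± 0.20, and it shares 204 exonic bases with Elavl1 on the other strand. Ccl27a, a skin chemokine, had 2.63 ± 0.257 and 3.13 ± 0.766 CPM (0.25 ± 0.24). Part of its transcript (44.98% of 50-base stretches) also occurs in other genes. Ccl11 (eotaxin-1), Ccl22 and Cxcl17 averaged 0.553, 0.697 and 1.30 CPM with vehicle, with estimates of 0.20 ± 0.50, -0.77 ± 0.58 and -1.14 ± 0.55.

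Of 12 tested signalling receptors, 3 fell and 0 rose, with 9 lower and 0 higher at an unadjusted p under 0.05 and 6 lower and 0 higher in DESeq2, to be read against the shares of all genes given above. Cxcr4 (chromosome 1, 128588199 to 128592293, minus strand), the receptor of Cxcl12 on most leukocytes, was tight in vehicle kidneys at 14.95, 13.7 and 15.5 CPM. With AZD1152 it stood at 6.59, 10.4, 6.89 and 5.66 CPM, below all vehicle kidneys. Cxcr4 fell by 1.00 ± 0.19 log2 units (edgeR adjusted p = 0.0224). Cxcr6 (chromosome 9, 123806475 to 123811760, plus strand), a receptor of tissue-resident and effector T cells, had 6.87, 7.81 and 8.49 CPM with vehicle and 3.02, 1.79, 4.78 and 2.97 CPM with AZD1152. It fell by 1.29 ± 0.28 (edgeR adjusted p = 0.0299). Ccr1 (chromosome 9, 123962124 to 123968692, minus strand), a receptor of monocytes and neutrophils, had 6.63, 5.48 and 5.55 CPM with vehicle and 3.44, 1.92, 2.87 and 3.75 CPM with AZD1152. It fell by 0.97 ± 0.24 log2 units (edgeR adjusted p = 0.0410), a call that was lost without any 1 of the 7 libraries (0.0529 to 0.120). Cxcr4 no longer passed when vehicle replicate 1, vehicle replicate 3 or AZD1152 replicate 4 was left out (0.0532 to 0.0878) and that of Cxcr6 without any 1 library other than AZD1152 replicate 2 or 3 (0.0551 to 0.109).

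Other receptors of monocytes and macrophages had lower means that edgeR did not call. Cx3cr1, a receptor of patrolling monocytes and resident macrophages, had 26.7, 20.1 and 38.6 CPM and 10.2, 11.01, 19.8 and 18.8 CPM (-0.93 ± 0.28, edgeR adjusted p = 0.0793). It shares 78 exonic bases with Gm33858 on the other strand. The vehicle kidneys lay above all treated kidneys, and AZD1152 replicates 3 and 4 were the higher treated ones.

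Ccr2, the receptor of Ccl2, had 38.3, 26.5 and 38.4 CPM with vehicle and 9.55, 13.7, 30.1 and 24.6 CPM with AZD1152. AZD1152 replicate 3 exceeded vehicle replicate 2, and the estimate of -0.82 ± 0.34 did not pass (edgeR adjusted p = 0.179). Xcr1, a receptor of cross-presenting dendritic cells, had 7.04, 12.3 and 7.76 CPM and 3.87, 3.18, 6.12 and 5.59 CPM (-0.94 ± 0.27, edgeR adjusted p = 0.0697). Dendritic cell markers summed to 108 to 135 CPM with vehicle and 60.4 to 88.0 CPM with AZD1152, without overlap. Of 7 tested, all had negative estimates, 1 fell in edgeR, 4 in DESeq2 and 4 had an unadjusted p under 0.05. Cxcr2, the neutrophil receptor, had 1.08 ± 0.571 and 1.21 ± 0.872 CPM (0.16 ± 0.60, edgeR adjusted p = 0.896). Ccr3, an eosinophil receptor, and Ccr10 averaged 0.829 and 0.851 CPM with vehicle and 0.515 and 0.802 CPM with AZD1152, with edgeR adjusted p = 0.553 and 0.912.

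Of 34 receptor and ligand pairs taken from textbook knowledge, 22 had both partners tested. In 3 of the 22 both partners fell (Ccr1 with Ccl5, Ccr1 with Ccl7 and Cxcr6 with Cxcl16). The ligand alone was called in 6 pairs, the receptor alone in 4, and 9 pairs had no called partner. In the pair Cxcr4 and Cxcl12 the receptor fell while its ligand had the estimate of -0.24 given above. The reverse was seen in the pair Ccr2 and Ccl2, and whether the partners differ was not tested. Many pairs share a partner, so the 22 pairs hold only 10 receptors and 17 ligands.

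Atypical receptors did not pass in edgeR or DESeq2 (0 of 3 tested, with 0 at an unadjusted p under 0.05). Ackr3 (chromosome 1, 90203980 to 90216751, plus strand), which takes up Cxcl12, had 56.3, 65.0 and 64.0 CPM with vehicle and 75.1, 47.0, 58.2 and 63.5 CPM with AZD1152. The groups overlapped fully, and the estimate was -0.02 ± 0.14 (edgeR adjusted p = 0.952). Ackr2, which degrades inflammatory CC chemokines and is known from lymphatic endothelium, had 3.67, 1.08 and 2.00 CPM and 2.05, 2.06, 2.55 and 2.69 CPM (0.06 ± 0.37). Ackr4, which takes up Ccl19 and Ccl21, had 0.929 ± 0.0678 and 1.08 ± 0.195 CPM (0.21 ± 0.27), and 479 of its exonic bases are shared with Acad11 on the other strand. Ackr1, the Duffy antigen of venules and red cells, had 1 count in all libraries together. Endothelial markers summed to 459 to 598 CPM with vehicle and 532 to 591 CPM with AZD1152. In edgeR 0 of 8 of them were called, with 1 at an unadjusted p under 0.05 and 0 by DESeq2.

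Per exon length the order of the most abundant members differed between the groups. With vehicle, Ccl8 led with 64.1 ± 18.9 CPM per kb of exon (SD, n = 3), followed by Ccl5 (37.8 ± 9.47), Cxcl16 (30.7 ± 2.78), Cxcl12 (28.3 ± 8.58), Cxcl13 (28.0 ± 21.5), Cx3cl1 (24.3 ± 1.45) and Ackr3 (18.4 ± 1.43). Each neighbour in this order from Ccl5 to Cx3cl1 lay within 1 SD of the next, judged by the larger SD of the pair. With AZD1152 the leading members were Cxcl12 (24.04 ± 5.42 CPM per kb, SD, n = 4), Cxcl16 (20.6 ± 3.14), Cx3cl1 (18.7 ± 3.28) and Ackr3 (18.2 ± 3.48), and these overlap. Ccl8 then stood at rank 5 (15.1 ± 7.21) and Ccl5 at rank 7 (9.65 ± 2.93). By counts, Cxcl12, Cx3cl1 and Cxcl16 together took 44.4% to 52.3% of the counts of all members with vehicle and 50.4% to 68.8% with AZD1152. All members together took 0.0789% to 0.102% of the library with vehicle and 0.05004% to 0.0638% with AZD1152.

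**Figure D3:**
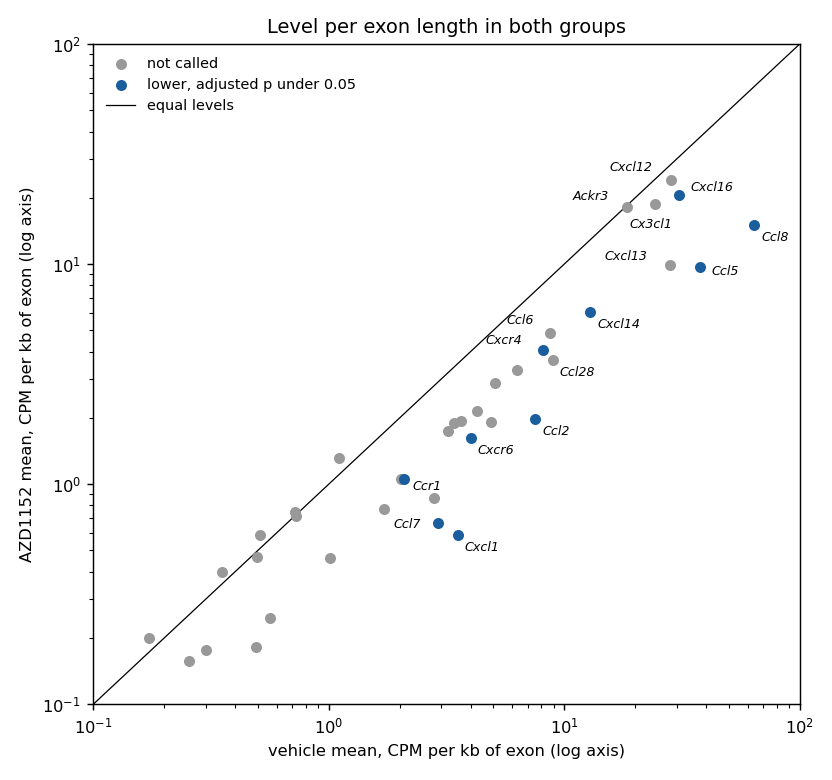
Mean level with vehicle (horizontal) and with AZD1152 (vertical) of 38 of the 39 tested members, in CPM per kb of exon on log axes, with the line of equal levels. Ccl8 goes from 64.1 to 15.1 and Ccl5 from 37.8 to 9.65, while Ackr3 stays on the line at 18.4 and 18.2.

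Leukocyte markers differed between the groups as well. Macrophage markers summed to 1015 to 1388 CPM with vehicle and 485 to 735 CPM with AZD1152, with 9 of 15 lower in edgeR, 0 higher and 0 markers at 0 counts. T cell markers summed to 113 to 189 and 53.5 to 85.3 CPM, with 8 of 15 lower and 0 higher. In these bulk samples fewer cells of a type and less RNA per cell cannot be told apart. Each member's log2 CPM was also given minus the mean log2 CPM of the 15 macrophage markers, which itself was 1.015 lower with AZD1152. This does not tell them apart, because the marker mean can be lower for either reason and many members are also made by other cells. On that scale the groups of Ccr1, Ccr2, Cx3cr1, Cxcr4, Cxcr6 and Xcr1 overlapped, with mean differences of -0.32 for Cxcr6 to 0.08 for Xcr1. Ccl2, Ccl5, Ccl7 and Cxcl1 were below the vehicle range in all 4 treated kidneys, with mean differences of -0.86, -0.96, -0.94 and -1.501. Of these, Ccl7 and Cxcl1 reached the filter's minimum in vehicle libraries only. The other called ligands, Ccl8, Cxcl14 and Cxcl16, had mean differences of -1.15, -0.11 and 0.43 with overlapping groups. In 6 members (Ackr2, Ackr3, Ackr4, Ccl25, Ccl27a and Cx3cl1) the treated kidneys lay above the vehicle range on this scale, and 29 of the 39 overlapped. A gene with an unchanged level is moved up on this scale by the fall of the marker mean. Ackr3, with an estimate of -0.02, thus had a mean difference of 0.98. Set against the T cell markers, which were 1.27 lower with AZD1152, only Ccl8 of the 39 was below the vehicle range in all treated kidneys, and 6 were above it. The groups of Ccl2, Ccl5, Ccl7 and Cxcl1 overlapped on that scale. These values are given without a test. The shares of all genes on these scales were not computed, so the counts of separated members cannot be read as a trait of the family. The part of leukocyte number in the results was not tested.

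**Figure D4:**
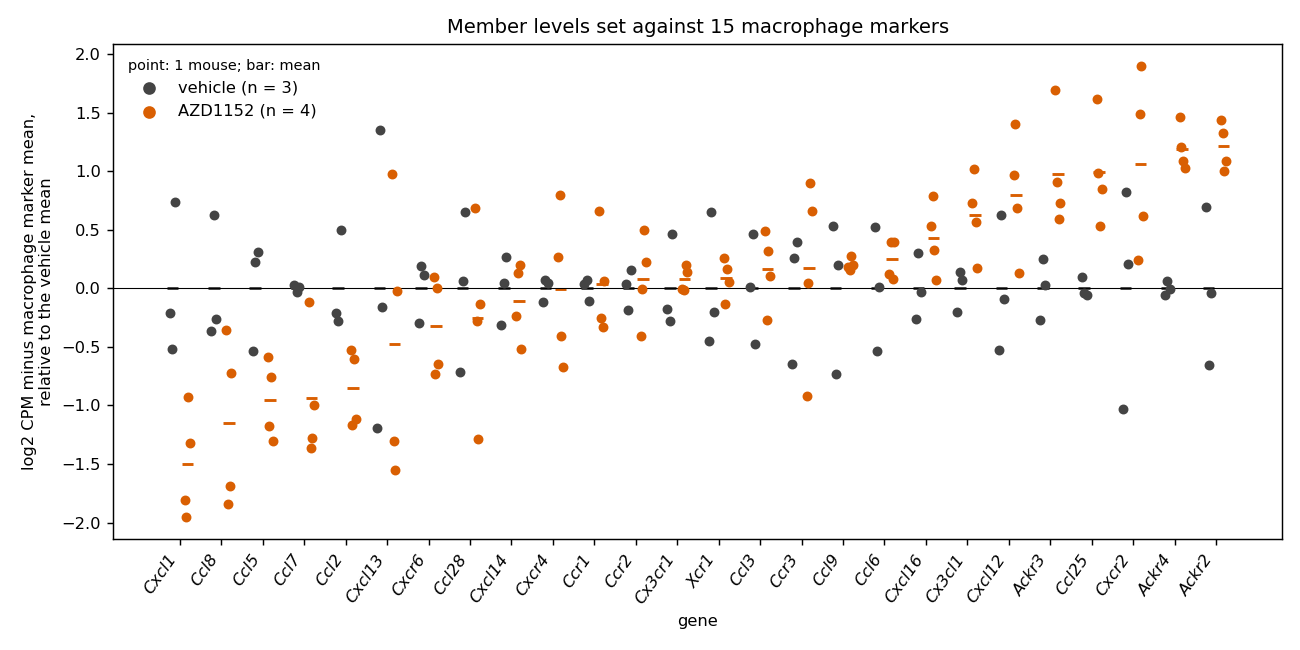
Log2 CPM minus the mean of 15 macrophage markers, relative to the vehicle mean of each gene (vertical axis), for 26 members. Points are mice and bars are group means. A gene with an unchanged level lies above 0 with AZD1152, because the marker mean was lower. Cxcl1, Ccl5, Ccl7 and Ccl2 lie at the left with treated kidneys below the vehicle range, the receptors Ccr1, Ccr2, Cx3cr1, Cxcr4 and Xcr1 lie near 0 with overlapping groups, and the atypical receptors lie at the right.

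Members of the family sit in clusters in the genome. On chromosome 11, 5 tested members lie from Ccl2 to Ccl1 (82035571 to 82305690), of which 3 fell, and 5 lie from Ccl5 to Ccl4 (83525778 to 83664683), of which 1 fell. Within the first of these clusters Ccl11 had the estimate of 0.20 given above, between Ccl7 (-2.11) and Ccl12 (-1.66).

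Genes of the family that the naming rule does not reach were not called. Pf4 and Ppbp, CXC chemokines of platelets, had 1.08 ± 0.270 and 0.285 ± 0.0994 CPM with vehicle and 0.579 ± 0.256 and 0.762 ± 0.313 CPM with AZD1152, and Ppbp did not pass the filter. Cmklr1, the chemerin receptor, and its ligand gene Rarres2 had log2 fold changes of -0.68 ± 0.26 and -0.56 ± 0.21 (edgeR adjusted p = 0.141 and 0.143). Dpp4, a peptidase that trims chemokines, had 0.31 ± 0.13 (edgeR adjusted p = 0.167). In all, edgeR called 0 of 6 tested, 3 had an unadjusted p under 0.05 and DESeq2 called 0.

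Of 55 genes that act downstream of chemokine receptors, 28 fell (50.9%, against 4.81% of all genes tested) and 0 rose in edgeR. In this list 2 were higher at an unadjusted p under 0.05 and 1 in DESeq2, and the median log2 fold change was -0.63. Many of them are leukocyte genes, and the macrophage and T cell markers above, of which 60.0% and 53.3% were lower, moved with them. The 6 with the smallest p were Ncf1, a subunit of the phagocyte oxidase, Rac2, the GTPase of leukocyte migration, Dock2, its exchange factor, Adcy7, an adenylate cyclase, Pik3cd, a lipid kinase of leukocytes, and Rgs1, which ends G protein signals. Rac2 fell from 48.6 ± 5.22 to 22.4 ± 3.32 CPM and Dock2 from 34.8 ± 2.04 to 15.1 ± 3.07 CPM. Ncf1, Adcy7, Pik3cd and Rgs1 fell by 1.16 ± 0.12, 1.40 ± 0.20, 1.06 ± 0.16 and 1.79 ± 0.27 log2 units (edgeR adjusted p = 0.00686 to 0.0116).

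The 27 rows without a test included 8 with 0 counts, among them Ccl26, Cxcl15 and Cxcr1, and 19 with 1 to 57 counts over all libraries. The type 2 chemokines Ccl17 and Ccl24 had 12 and 5 counts, the mucosal chemokine Ccl20 had 22 and the T cell chemokines Ccl1 and Xcl1 had 11 and 13. Among receptors Ccr4, Ccr6, Ccr8 and Ccr9 had 19, 38, 28 and 57 counts, and Ccr1l1 had 5.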

How the data were processed

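Total RNA of kidney was poly(A)-selected and sequenced, 1 library per mouse. The deposited values are raw counts per gene; per the submitters' processing notes reads were aligned with HISAT2 2.0.5 to GRCm38, and CASAVA, DESeq2 and DESeq were also named. How reads were counted, with which annotation and strand, is not given in the sources used here. Symbols, coordinates, exon lengths and overlaps came from GENCODE M21 (GRCm38), which named 53360 of 53465 genes. Sample titles gave each group and number.

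The members and gene lists were chosen with earlier results of these data known. After filterByExpr and TMM scaling, genes were tested in edgeR 4.0.16 (R 4.3.3, quasi-likelihood, group alone, two-sided), with Benjamini-Hochberg adjustment over 15774 genes. Standard errors were derived from the F statistic. Log2 CPM used a prior count of 2. Simulated counts, in which 200 genes were changed, served as a test of the filter, the scaling and the edgeR fit only. Alternatives were other scalings, filters, DESeq2 1.42.0, a replicate block and leaving out each library. Named genes were all called members, the atypical receptors, tested partners of called ligands and receptors, members averaging 5 CPM or more, and the 6 signalling genes with the smallest p. Others named, such as Ccl4, Ccl12, Cxcl2 and Cxcr5, were added after their values were seen. A sequence shared with other genes was counted in stretches of 50 bases of GENCODE transcripts. One member counted among those tested is not reported here.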

Additional observations from a re-analysis of the deposited data

How the results depend on the processing

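The 10 calls were kept with RLE and upper-quartile factors, with TMM factors computed without mitochondrial and the 50 most abundant genes, and with total counts, where Ccl28, Cx3cl1 and Xcr1 were added. Without a filter on low counts 14 of 58 tested members were lower, and so were 973 of 27907 genes. With the stricter filter, which left 24 members tested, 9 were lower because Ccl7 was not tested, against 736 of 13220 genes. DESeq2 called 16 members lower, among them the 10 and Ccl4, Ccl12, Ccl28, Cx3cr1 and Xcr1. With a replicate block 5 members were lower, Cx3cr1 and 4 of the 10 (Ccl2, Ccl5, Cxcl1 and Cxcl14), from a model with fewer degrees of freedom that called 146 lower and 63 higher genes in all. Leaving out 1 library gave 3 to 11 members lower, against 163 to 619 lower genes in all. Members called higher numbered 0 under each of these alternatives. The median log2 fold change of tested members ran from -1.09 to -0.82. Whether the numbers pair the mice cannot be decided from 3 vehicle and 4 AZD1152 libraries. The correlations of deviations from the group means were -0.29, 0.21 and -0.12 for numbers 1 to 3. For vehicle replicate 1 with AZD1152 replicate 3 the correlation was 0.30. No named member that was called changed its sign. The 27 members without a test had too few counts for the filter.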
